A study of Mus musculus with 10 samples.

Results

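The subject here is the difference between the responses of 2 mouse cell lines to growing together, taken gene by gene as the bilayer response of adipocytes minus the bilayer response of macrophages. A positive difference means that the change from monolayer to bilayer was more upward in adipocytes, and a negative one that it was more upward in macrophages. Members were the genes with a probe above background on at least 2 arrays of each cell line, that is above a noise bound of 10.9, the 99th percentile of the sizes of values below 0. They numbered 9316 of the 19057 annotated genes on the array. A further 1674 genes passed in adipocytes only, 963 in macrophages only and 47 in both lines but by different probes, and 7057 passed in neither. The rule uses brightness in each line and not the response itself, and the difference was tested on all members. For 393 members, 14 of them among the called genes, a line passed through 1 condition alone, which fixes the direction in that line, and where such a gene is named below its values are a description.

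Messenger RNA was measured on 10 Illumina mouse arrays. The adipocytes were 3T3-L1 cells, a fibroblast-derived line of embryonic origin, differentiated to day 8 with IBMX, dexamethasone and insulin, and the macrophages were RAW 264.7 cells, a line of ascites origin. The 4 groups were 3 monolayer and 3 bilayer adipocyte samples and 2 monolayer and 2 bilayer macrophage samples. In the bilayer the macrophages lay on a polycarbonate membrane with 0.4 µm pores above the adipocytes for 24 h, so that dissolved molecules could pass and cells could not. Each sample was a pool of 5 dishes. Each line stands for its cell type by a single line, and no genotype or drug differed between monolayer and bilayer. Series and labels do not say whether monolayer dishes held an insert or the same volume of medium, so effects of the membrane, the medium or the total number of cells cannot be told apart from effects of the other line. The series calls the samples biological replicates without stating separate cultures, and the p-values therefore reflect the scatter of these pools only, part of which may be technical. The contrast asks which genes the 2 lines changed differently when grown together.

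As background, fat tissue holds adipocytes and resident macrophages that exchange fatty acids, cytokines and chemokines. Low oxygen stabilises hypoxia-inducible factor, which raises genes of glycolysis, glucose uptake, pH control and collagen modification. Interferon raises antiviral genes, many of which carry an interferon-stimulated response element. Tumour necrosis factor and interleukin-1 act through NF-kB on chemokine genes and on the genes of its own inhibitors. Interleukin-6 family cytokines act through STAT3, and amino acid shortage or endoplasmic reticulum stress act through ATF4 in the integrated stress response.

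The labels held against the defining markers of the cell types. The summed intensity of 9 adipocyte markers was 54433 to 63350 on adipocyte arrays, 59.1 to 59.9 on monolayer macrophage arrays and 32.1 to 67.1 on bilayer macrophage arrays. Of those 9 markers, 6 were above noise on no monolayer and 7 on no bilayer macrophage array. The summed intensity of 9 macrophage markers was 57044 to 60042 on macrophage arrays, 9.49 to 40.2 on monolayer and 16.8 to 46.9 on bilayer adipocyte arrays. Of those 9 markers, 7 were above noise on no monolayer and 7, not all the same, on no bilayer adipocyte array. The 9 fibroblast and preadipocyte markers summed to 22650 to 23898 on adipocyte arrays and were above noise on no macrophage array. The defining markers of each line were thus at or near 0 in the other line in both conditions. The adipocyte cultures kept a high level of the preadipocyte marker Dlk1, 11348 to 12135. Arrays of a group correlated at r = 0.988 to 0.991 over all probes and monolayer with bilayer arrays of 1 line at 0.986 to 0.990. A level here is a whole culture's, so fewer cells with a transcript and less transcript per cell cannot be told apart.

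Levels are the authors' background-subtracted, normalized intensities, which are not compared between genes, and responses, differences and folds are on the log2(intensity + 16) scale with standard errors (SE). Of the 9316 members, 400 responded differently in the 2 lines (limma, adjusted p below 0.05), or 4.29%. The adipocyte response was the higher in 229 genes (2.46%) and the lower in 171 (1.84%). Among these 400 genes the larger of the 2 changes was in adipocytes for 291 and in macrophages for 109. The difference was at least 1 on the log2 scale for 71 genes, 56 with the higher and 15 with the lower response in adipocytes. Over the same members, 567 genes (6.09%) rose and 569 (6.11%) fell in bilayer adipocytes, while 57 (0.612%) rose and 26 (0.279%) fell in bilayer macrophages. The median standard error of a response was 0.11 in adipocytes and 0.14 in macrophages, which had fewer arrays, and that of the difference was 0.18. Counts of calls in the 2 lines therefore rest on different precision. Across the members the 2 responses had a Pearson correlation of 0.04, over genes that are not independent. The count of 400 depended on the spread assumed for each gene. It was 49 without the intensity trend of the variance and 620 with each line fitted alone. It was 104 with no filter on dim probes. Without macrophage monolayer replicate 2, macrophage bilayer replicate 1 or macrophage bilayer replicate 2 it was 205, 228 and 242. The counts of single lines moved too, from 1136 to 729 in adipocytes without adipocyte monolayer replicate 1, and from 83 to 48 or 50 in macrophages without macrophage monolayer replicate 2 or macrophage bilayer replicate 2. Of the 54 genes named below whose difference passed, 17 passed in every setting tried and 34 were lost without the intensity trend. Among the 17 were Oasl2, Ampd3, Hmox1, Mx2, Bcl3, Ccl2, P4ha2, Pdk1, Isg15, Scd2 and Angptl4. The 17 also included P2ry6, Slc23a3, Rgcc, Gpat3 and Gper1. Each of these was a member in a line through 1 condition alone, which fixed the direction there.

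**Figure D1:**
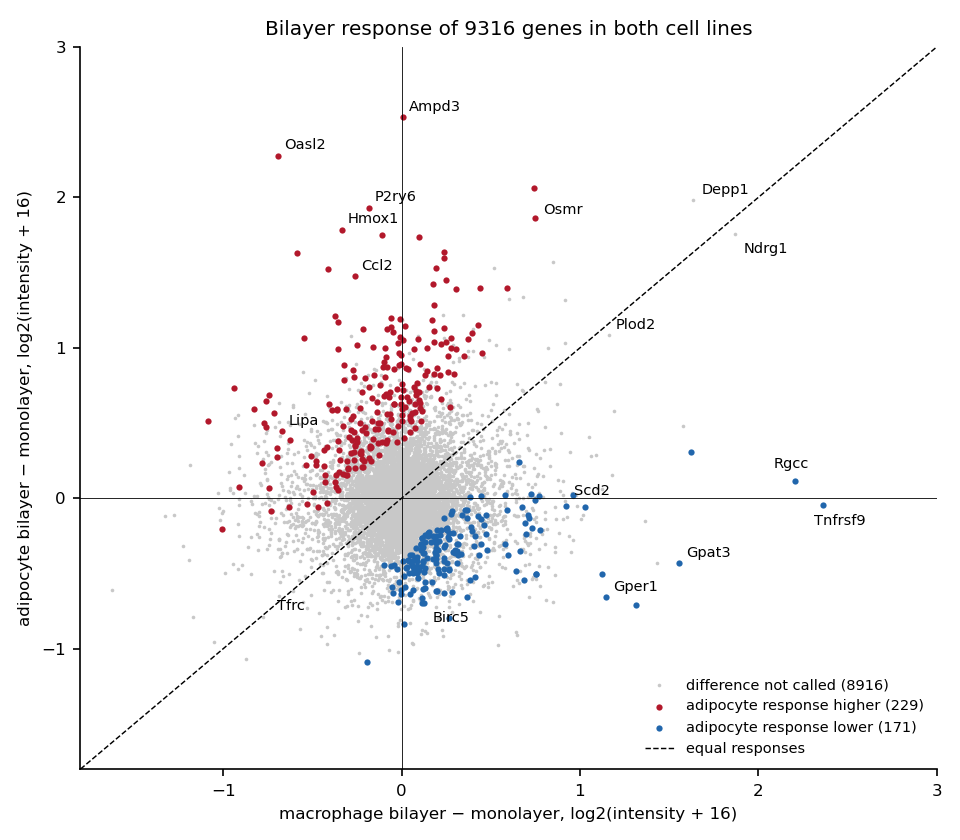
Bilayer minus monolayer change on the log2(intensity + 16) scale in macrophages (x axis) and adipocytes (y axis) for 9316 genes. Red and blue points are the 229 and 171 genes whose difference passed the test, grey points the others, and the dashed line marks equal responses. Red points extend up to the Ampd3 response of 2.53 in adipocytes, and Rgcc and Tnfrsf9 lie farthest to the right.

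The genes with the largest positive differences included nucleotide, haem, interferon and chemokine genes, and for most of them the adipocyte level rose while the macrophage change did not pass the test. Ampd3, which encodes an AMP deaminase of purine nucleotide metabolism, read 37.0, 47.6 and 56.0 in monolayer and 374, 327 and 335 in bilayer adipocytes, and 647 and 704 in monolayer and 691 and 667 in bilayer macrophages. The adipocyte arrays of the 2 conditions did not overlap, and the bilayer adipocyte level stayed under the macrophage level. Ampd3 rose 5.78-fold in adipocytes and its change in macrophages was 0.01 (SE 0.14, adjusted p = 0.993), so the difference was 2.52 (SE 0.18, adjusted p = 3.1e-08). Hmox1, whose product haem oxygenase 1 breaks haem down to iron, carbon monoxide and biliverdin, read 1742, 1905 and 2202 in monolayer and 6925, 6548 and 6733 in bilayer adipocytes, and 1106 and 1115 in monolayer and 945 and 814 in bilayer macrophages. All bilayer adipocyte arrays lay above all other arrays of the series. It rose 3.45-fold in adipocytes, the estimate in macrophages was -0.33 (SE 0.10, adjusted p = 0.117), and the difference was 2.12 (SE 0.12, adjusted p = 1.52e-09).

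P2ry6, a receptor for the extracellular nucleotide UDP, was a macrophage gene that adipocytes gained. It read 0.604, 3.39 and 5.86 in monolayer and 68.7, 60.5 and 44.3 in bilayer adipocytes, and 5460.2 and 5646 in monolayer and 5069 and 4705 in bilayer macrophages. No monolayer adipocyte array exceeded the noise bound of 10.9, so the rise in adipocytes was at least 2.72-fold, set against the higher of the bound and the measured value on each array. The fitted difference was 2.12 (SE 0.20). Because P2ry6 passed the brightness rule in adipocytes through the bilayer arrays alone, it could enter only by being higher there, and the same holds for Mob3b, a MOB family kinase adaptor, which rose at least 1.68-fold in adipocytes and had a difference of 1.61 (SE 0.45, adjusted p = 0.0449). The macrophage estimate of P2ry6 was -0.18 (SE 0.15, adjusted p = 0.771). Fitted differences of such genes depend on the constant added before the log2 and are no bounds.

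Among the other large positive differences, Slc25a34, a mitochondrial carrier gene, read 83.7, 69.0 and 133 in monolayer and 320.3, 352 and 286 in bilayer adipocytes, and 16.8 and 22.7 in monolayer and 4.78 and 11.1 in bilayer macrophages. The bilayer macrophage values straddled the noise bound, the rise in adipocytes was 3.09-fold and the difference 2.22 (SE 0.31, adjusted p = 0.000272). Slc23a3, of the family of ascorbate transporters, had a fitted difference of 1.67 (SE 0.33) and was a member through monolayer macrophages alone. It was 40.2 to 43.4 in monolayer and 72.2 to 86.1 in bilayer adipocytes, while the macrophage level went from 20.4 to 32.7 to below noise, at least 1.57-fold lower, a change that did not pass alone (adjusted p = 0.104). Masp2, a protease of the lectin pathway of complement, had a difference of 1.60 (SE 0.39, adjusted p = 0.0223), with neither line's own change passing (adjusted p = 0.201 in adipocytes and 0.108 in macrophages). The calls of Masp2 and Mob3b each rested on the full set of arrays. The Masp2 call was lost without adipocyte bilayer replicate 1, adipocyte monolayer replicate 1, macrophage bilayer replicate 1 or macrophage monolayer replicate 2 (adjusted p = 0.0548 to 0.161). That of Mob3b was lost without any 1 array other than adipocyte bilayer replicate 3 and adipocyte monolayer replicate 3 (adjusted p = 0.0706 to 0.205).

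A total of 24 gene lists covered 405 member genes, of 555 on the array and 609 listed. All counts by list are descriptions, to be read beside 2.46% higher and 1.84% lower over all members and the median difference of all members of -0.02. For macrophage changes at an unadjusted p below 0.05, no share over all members is given. Counts of that kind by list have no background to be read beside, and small ones cannot be told from it. The highest medians were those of inflammatory cytokines and NF-kB targets (0.72), the interferon response (0.61), acute phase and interleukin-6 family signalling (0.59), glycolysis and lactate export (0.57), immediate early genes (0.53) and the hypoxia response (0.52). The lowest were those of fibroblast and preadipocyte matrix with 5 members (-0.47) and the cell cycle (-0.44). Each of these lists had members that did not pass.

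**Figure D2:**
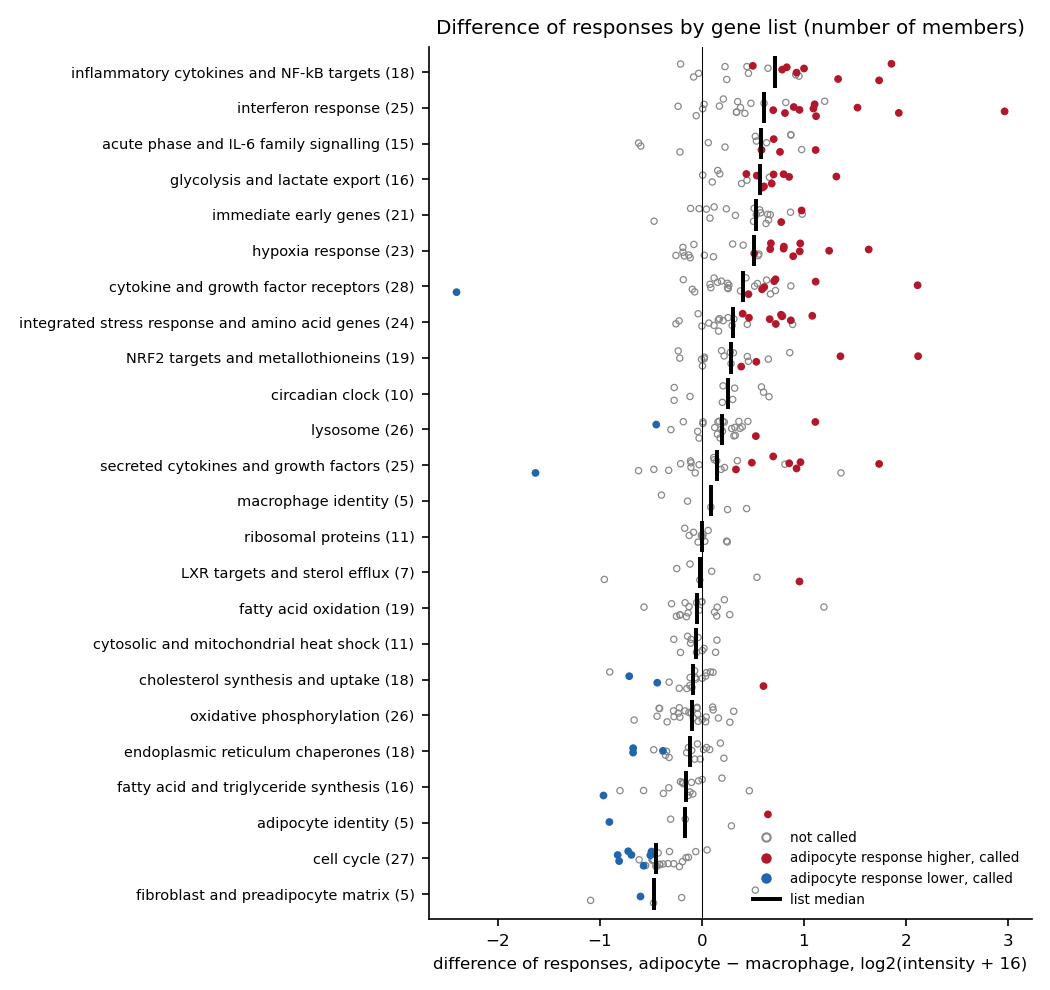
Difference of the bilayer responses, adipocyte minus macrophage, on the log2(intensity + 16) scale (x axis) for the members of 24 gene lists (y axis, number of members in brackets, sorted by median). Filled red and blue points passed the test and open points did not, and black bars are list medians, which run from -0.47 to 0.72.

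Hypoxia genes rose in both lines, more of them in adipocytes and 10 of them further there. Of 23 hypoxia response members, 18 rose in adipocytes and 6 in macrophages, 0 fell in either line, and 10 had a higher response in adipocytes. The list's median change was 0.97 in adipocytes and 0.38 in macrophages. At an unadjusted p below 0.05, 10 members had an upward and 0 a downward change in macrophages. P4ha2, a prolyl hydroxylase that modifies collagen, read 914, 859 and 1088 in monolayer and 2601, 2627 and 2498 in bilayer adipocytes, and 689 and 682 in monolayer and 810.3 and 744 in bilayer macrophages. Neither the adipocyte nor the macrophage arrays of the 2 conditions overlapped, and the shift was much larger in adipocytes. P4ha2 rose 2.69-fold in adipocytes against an estimate of 0.18 in macrophages (adjusted p = 0.576), with a difference of 1.25 (SE 0.13, adjusted p = 3.54e-06). Car9, a carbonic anhydrase at the cell surface, read 31.9, 42.2 and 69.6 in monolayer and 162, 208 and 205 in bilayer adipocytes, and 74.4 and 85.8 in monolayer and 86.2 and 87.3 in bilayer macrophages. Bilayer adipocytes passed the macrophage level, from below it in monolayer, and the difference was 1.64 (SE 0.29, adjusted p = 0.00238). Pdk1, the kinase that turns off pyruvate dehydrogenase, rose in both lines, 2.63-fold in adipocytes and 1.50-fold in macrophages, and still differed by 0.81 (SE 0.12, adjusted p = 0.000639). The other 7 that differed, named by their membership after their values were seen, were Mxi1 (0.97), Egln1 (0.96), P4ha1 (0.90), Slc2a1 (0.80), Kdm4b (0.68), Jmjd6 (0.67) and Fam162a (0.52). Egln1 encodes the oxygen-sensing hydroxylase that marks hypoxia-inducible factor for destruction, and Slc2a1 the glucose transporter GLUT1. The count of 10 was 6 without adipocyte bilayer replicate 2, adipocyte monolayer replicate 2 or macrophage bilayer replicate 2, and 2 without the intensity trend.

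The remaining 4 of the 6 hypoxia genes that passed in macrophages also rose in adipocytes, and their differences did not pass. Ndrg1, a gene induced by hypoxia and stress, read 44.1, 100.0 and 82.7 in monolayer and 329, 289 and 237 in bilayer adipocytes, and 314 and 307 in monolayer and 1249.8 and 1109 in bilayer macrophages. No arrays of the 2 conditions overlapped in either line. It rose 3.38-fold in adipocytes and 3.66-fold in macrophages, with a difference of -0.11 and a 95% interval from -0.67 to 0.44. For Plod2, a lysyl hydroxylase of collagen, the folds were 2.12 and 2.24, and the interval of the difference ran from -0.42 to 0.27. For Ddit4, an inhibitor of the growth kinase complex mTORC1, they were 2.05 and 1.89, with an interval from -0.38 to 0.61. Bnip3l, a mitophagy receptor named after its values were seen, rose by 0.25 and 0.44. The intervals bound how far the responses of these genes could differ.

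Glycolysis followed the first pattern. Of 16 glycolysis and lactate export members, 14 rose in adipocytes and 2 in macrophages, and 9 had a higher response in adipocytes. The list's median change was 0.72 in adipocytes and 0.26 in macrophages. At an unadjusted p below 0.05, 10 members had an upward and 0 a downward change in macrophages. Pgk1, phosphoglycerate kinase, read 4216, 4788 and 4955 in monolayer and 9479.8, 10209 and 8288 in bilayer adipocytes, and 10518 and 9611 in monolayer and 11988 and 10265 in bilayer macrophages. Its rise in adipocytes, 2.00-fold, brought it near the macrophage level, and its change in macrophages was 0.14 (SE 0.10, adjusted p = 0.704). The difference was 0.86 (SE 0.13, adjusted p = 0.000474). Pgam1, phosphoglycerate mutase, rose 1.99-fold in adipocytes against an estimate of 0.30 in macrophages (adjusted p = 0.107) and differed by 0.69 (SE 0.11, adjusted p = 0.000915). The enolase gene Eno2 had the largest difference of the list, 1.32 (SE 0.26, adjusted p = 0.00465), and was named after its value was seen. Slc2a1, Pfkl, Aldoa, Gapdh, Pkm and Ldha, which encode the glucose transporter and further enzymes of the pathway, differed by 0.44 (Pkm) to 0.80 (Slc2a1). Tpi1 and Pgm1 rose in both lines, by 0.69 and 0.56 in adipocytes and 0.53 and 0.45 in macrophages, and their differences of 0.16 and 0.10 did not pass. Of the 9 calls, 0 remained without the intensity trend by limma, although the estimates of all 16 members were above 0. Probes for Gapdh, Pgk1 and other genes with near-identical pseudogenes may bind transcripts of those copies as well.

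**Figure D3:**
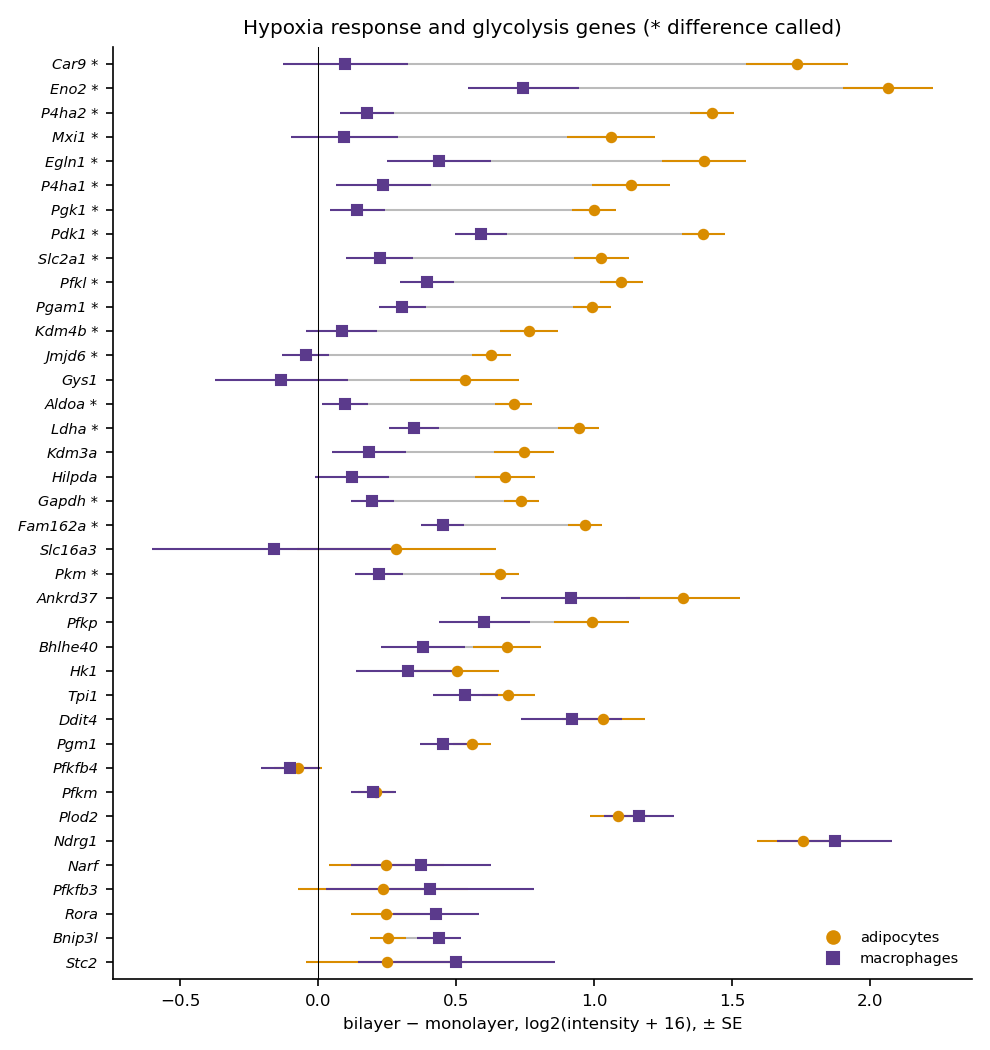
Bilayer minus monolayer change (x axis, log2(intensity + 16), bars are standard errors) of the hypoxia response and glycolysis members (y axis, sorted by difference) in adipocytes (orange circles) and macrophages (violet squares). Car9 and Eno2 at the top differ most, and Ndrg1 and Plod2 further down lie at similar changes of over 1 in both lines.

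Promoters of 2 hypoxia genes that differed and 1 that did not are shown, chosen because they hold the same short motif. The core of the hypoxia response element, ACGTG on either strand, was searched in RefSeq promoters of GRCm38.p6, 250 bases before to 50 after each gene's start. Of the members, 7621 matched the table by symbol. The motif was in 15 of 25 promoters of hypoxia response members (60%) and 13 of 24 of glycolysis members (54.2%), against 19.6% of all 32851 promoters and 25.9% of those of members. Lists with few or no differing genes held it at similar shares, in 13 of 25 lysosome (52%), 6 of 12 heat shock (50%), 6 of 13 circadian clock (46.15%) and 5 of 12 ribosomal protein promoters (41.67%). Promoters of all called genes held the motif at 32.6% where the adipocyte response was higher and 26.1% where it was lower. For this and the motifs below, a list's share describes the list and does not test the difference of responses. The letters are also part of the E-box CACGTG. In the sequences the matches are in capitals. P4ha2 (chr11:54100674-54100973, plus strand) and Car9 (chr4:43506776-43507075, plus strand) responded more in adipocytes, and Ddit4 (chr10:59951721-59952020, minus strand) rose in both lines.
P4ha2: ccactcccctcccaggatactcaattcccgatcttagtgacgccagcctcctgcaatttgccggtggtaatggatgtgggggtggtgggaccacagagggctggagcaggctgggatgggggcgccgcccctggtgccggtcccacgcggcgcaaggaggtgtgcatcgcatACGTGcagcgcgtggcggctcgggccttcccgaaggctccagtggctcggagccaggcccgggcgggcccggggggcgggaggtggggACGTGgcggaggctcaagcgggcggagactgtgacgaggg
Car9: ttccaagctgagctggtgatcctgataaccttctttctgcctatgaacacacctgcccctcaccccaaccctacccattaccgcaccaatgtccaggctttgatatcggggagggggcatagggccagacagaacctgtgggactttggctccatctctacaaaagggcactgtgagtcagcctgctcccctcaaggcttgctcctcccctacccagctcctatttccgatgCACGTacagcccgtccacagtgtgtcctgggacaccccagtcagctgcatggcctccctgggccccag
Ddit4: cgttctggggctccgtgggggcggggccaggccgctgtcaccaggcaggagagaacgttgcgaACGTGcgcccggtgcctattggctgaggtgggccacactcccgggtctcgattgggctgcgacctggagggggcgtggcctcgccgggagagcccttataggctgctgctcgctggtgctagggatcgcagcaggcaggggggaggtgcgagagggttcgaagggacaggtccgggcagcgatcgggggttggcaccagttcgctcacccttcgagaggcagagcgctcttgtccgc
P4ha2 holds 2 matches, which begin at positions -78 and 11 from the start, Car9 has 1 at -18 and Ddit4 has 1 at -187. A match describes these letters and is not a measured binding site. No promoter sequence is printed for Ndrg1 and Plod2.

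Interferon response genes rose in adipocytes, and none passed in macrophages. Of 25 members, 14 rose and 1 fell in adipocytes, 0 passed in macrophages in either direction, and 10 had a higher response in adipocytes. The list's median change was 0.55 in adipocytes and -0.09 in macrophages, where 5 members had a downward and 0 an upward change at an unadjusted p below 0.05. Oasl2, an oligoadenylate synthetase-like antiviral gene, read 46.2, 31.3 and 34.8 in monolayer and 207, 276 and 247 in bilayer adipocytes, and 226 and 198 in monolayer and 136 and 114 in bilayer macrophages. Bilayer adipocytes reached the monolayer macrophage level, and the bilayer macrophage arrays lay below both monolayer arrays. It rose 4.85-fold in adipocytes, the macrophage estimate was -0.69 (SE 0.18, adjusted p = 0.0811), and the difference of 2.97 (SE 0.23, adjusted p = 1.43e-07) was the largest of all members. Mx2, a dynamin-like GTPase with antiviral activity, read 9.58, 17.5 and 11.3 in monolayer and 66.3, 67.6 and 64.7 in bilayer adipocytes, and 20.4 and 28.8 in monolayer and 15.1 and 13.7 in bilayer macrophages. Its difference was 1.93 (SE 0.37, adjusted p = 0.00419). Isg15, a ubiquitin-like protein that is joined to other proteins after interferon, read 138, 132 and 118 in monolayer and 298, 345 and 293 in bilayer adipocytes, and 128 and 104 in monolayer and 85.4 and 88.7 in bilayer macrophages. Bilayer adipocytes lay above every macrophage array, although the lines had overlapped in monolayer, and the difference was 1.53 (SE 0.20, adjusted p = 0.000127).

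The other 7 interferon genes that differed, named after their values were seen, were Parp14 (1.12), Dhx58 (1.11), Irf9 (1.09), Stat2 (0.96), Usp18 (0.90), Ifit3 (0.82) and Bst2 (0.70). For Bst2 neither line's own change passed, with 0.22 in adipocytes (adjusted p = 0.268) and -0.48 in macrophages (adjusted p = 0.158). Stat2 and Irf9 encode transcription factors of the interferon pathway, and Usp18 is an inhibitor of the receptor. The count of 10 was 6 without macrophage monolayer replicate 2 and 3 without the intensity trend. Among receptors, Ifnar2, a chain of the type I interferon receptor, differed by 0.71 (SE 0.19, adjusted p = 0.0365) and Ifngr2, a chain of the interferon gamma receptor, by 0.72 (SE 0.18, adjusted p = 0.0212). Ifngr2 too passed in neither line alone, with 0.25 in adipocytes (adjusted p = 0.168) and -0.48 in macrophages (adjusted p = 0.117). The interferon-stimulated response element, searched on either strand as GAAA, any 2 bases and GAAA, was in 10 of 25 promoters of the list (40%) against 3.44% of all promoters. The promoter of Isg15 (chr4:156200769-156201068, minus strand) is shown for its 3 overlapping matches, which begin at -78, -72 and -66 and run together in capitals.
Isg15: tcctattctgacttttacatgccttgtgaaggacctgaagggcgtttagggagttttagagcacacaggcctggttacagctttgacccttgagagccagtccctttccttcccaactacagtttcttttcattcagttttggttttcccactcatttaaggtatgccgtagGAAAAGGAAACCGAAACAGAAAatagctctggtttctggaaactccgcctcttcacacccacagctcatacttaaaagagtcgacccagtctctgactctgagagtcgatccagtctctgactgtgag
No promoter sequence was available here for Mx2, and none is printed for it.

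Inflammatory genes showed the same asymmetry. Of 18 members of the NF-kB target and cytokine list, 11 rose in adipocytes, 0 passed in macrophages (1 upward and 3 downward at an unadjusted p below 0.05), and 8 had a higher response in adipocytes. Ccl2, a chemokine that attracts monocytes, read 213, 249 and 173 in monolayer and 589.8, 675 and 576 in bilayer adipocytes, and 3720.4 and 3657 in monolayer and 3002 and 3152 in bilayer macrophages. Macrophages kept the higher level in both conditions, and their bilayer arrays lay below their monolayer arrays. Ccl2 rose 2.79-fold in adipocytes, the macrophage estimate was -0.26 (SE 0.12, adjusted p = 0.43), and the difference was 1.74 (SE 0.15, adjusted p = 7.02e-07). Ccl7, a related chemokine, read 1329, 1310.2 and 1065 in monolayer and 2165, 1899.7 and 1985 in bilayer adipocytes, and 1417 and 1285 in monolayer and 1170.0 and 1136 in bilayer macrophages. The lines overlapped in monolayer, and bilayer adipocytes lay above every macrophage array, with a difference of 0.93 (SE 0.13, adjusted p = 0.000242). Bcl3, a nuclear member of the NF-kB inhibitor family, rose 3.36-fold in adipocytes and differed by 1.86 (SE 0.27, adjusted p = 0.000291). Its level in bilayer adipocytes, 127, 106 and 141, overlapped that of macrophages at 126 and 114 in monolayer. The other 5 were Nfkbie (1.34), Relb (1.00), Tnfaip2 (0.83), Nfkbiz (0.79) and Tnip1 (0.50), named after their values were seen. Relb is an NF-kB subunit, and Nfkbie, Nfkbiz and Tnip1 encode regulators of the pathway. The count of 8 was 4 without the intensity trend.

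The NF-kB motif, searched on either strand as GGG, any 3 bases and TTCC, was in 9 of 16 promoters of the inflammatory list (56.2%) against 5.55% of all promoters. Over all called genes it was in 9.69% of promoters with the higher and 3.64% with the lower response in adipocytes, against 5.92% for members. The promoter of Nfkbie (chr17:45555450-45555749, plus strand), whose product inhibits NF-kB, is shown with its match, which begins at -106, in capitals.
Nfkbie: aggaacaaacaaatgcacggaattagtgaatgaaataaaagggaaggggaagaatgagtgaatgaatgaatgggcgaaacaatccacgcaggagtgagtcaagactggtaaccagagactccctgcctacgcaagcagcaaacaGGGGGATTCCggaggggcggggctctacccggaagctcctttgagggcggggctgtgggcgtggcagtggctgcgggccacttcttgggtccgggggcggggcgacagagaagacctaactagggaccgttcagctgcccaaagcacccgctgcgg
Nfkbie read 16.4, 25.7 and 23.3 in monolayer and 88.4, 98.3 and 91.3 in bilayer adipocytes, and 202 and 166 in monolayer and 222 and 203 in bilayer macrophages. Bilayer adipocytes rose to a level still under that of macrophages, which did not pass (adjusted p = 0.822).

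In the acute phase and interleukin-6 family list, transcripts of a receptor, 2 transcription factors and a feedback inhibitor differed, and the remaining members did not pass. Of 15 acute phase and interleukin-6 family members, 6 rose in adipocytes and 1 in macrophages, and 4 had a higher response in adipocytes. The 1 that rose in macrophages was Osmr, the oncostatin M receptor, which read 325, 339.9 and 343 in monolayer and 1182, 1219 and 1403 in bilayer adipocytes, and 23.7 and 12.7 in monolayer and 47.0 and 34.9 in bilayer macrophages. It rose in both lines without overlap, 3.64-fold and 1.68-fold, and still differed by 1.12 (SE 0.20, adjusted p = 0.00277). Stat3, the transcription factor of this family, read 1017, 1126 and 1159.9 in monolayer and 1924, 1832 and 1661 in bilayer adipocytes, and 504 and 639 in monolayer and 539.9 and 546 in bilayer macrophages. It rose 1.63-fold in adipocytes, had an estimate of -0.06 in macrophages, and differed by 0.77 (SE 0.14, adjusted p = 0.00238), and both other probes of the gene passed in the same direction. The other 2 were Socs3 (0.71), an inhibitor of the signal, and Cebpd (0.59), a transcription factor of the acute phase. The count of 4 was 2 without macrophage bilayer replicate 2 or macrophage monolayer replicate 2 and 0 without the intensity trend.

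Immediate early genes passed less firmly. Of 21 members, 10 rose in adipocytes and 0 in macrophages (1 at an unadjusted p below 0.05), and 2 differed, Fosl2 and Atf3, or 9 without adjustment. Fosl2, an AP-1 subunit, read 398, 376 and 388 in monolayer and 1138, 781 and 516 in bilayer adipocytes, and 318 and 319 in monolayer and 293 and 339 in bilayer macrophages. The bilayer adipocyte arrays were spread widely, and the difference was 0.98 (SE 0.26, adjusted p = 0.0367). Its call was lost when any 1 array other than adipocyte bilayer replicate 1 and adipocyte bilayer replicate 3 was left out (adjusted p = 0.0621 to 0.151). Atf3, a stress-induced transcription factor, read 58.1, 53.6 and 69.1 in monolayer and 91.3, 125 and 93.7 in bilayer adipocytes, and 744 and 721 in monolayer and 595 and 741 in bilayer macrophages. It differed by 0.78 (SE 0.21, adjusted p = 0.0342), with the call lost without adipocyte monolayer replicate 1 or 2, adipocyte bilayer replicate 2, macrophage monolayer replicate 1 or 2 or macrophage bilayer replicate 1 (adjusted p = 0.0659 to 0.197). Without adipocyte bilayer replicate 3, in contrast, 6 members of the list passed.

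Genes of the integrated stress response that differed were all more upward in adipocytes, and the endoplasmic reticulum chaperones that differed were all more downward there. Of 24 integrated stress response and amino acid members, 10 rose in adipocytes, 0 passed in macrophages (2 upward and 3 downward at an unadjusted p below 0.05) and 8 had a higher response in adipocytes. Chac1, a glutathione-degrading enzyme, read 1188, 1313 and 1410.2 in monolayer and 2484, 2492 and 1732 in bilayer adipocytes, and 504 and 551 in monolayer and 504 and 465 in bilayer macrophages. It rose 1.69-fold in adipocytes and differed by 0.87 (SE 0.17, adjusted p = 0.00449). Aldh18a1, an enzyme of proline synthesis, rose 1.60-fold and differed by 0.78 (SE 0.15, adjusted p = 0.00417). The other 6, named after their values were seen, were Ppp1r15a (1.08), Ddit3 (0.79), Trib3 (0.73), Slc38a2 (0.67), Nupr1 (0.46) and Atf4 itself (0.40). The count of 8 was 5 without macrophage bilayer replicate 2 or macrophage monolayer replicate 1 and 0 without the intensity trend. The C/EBP-ATF response element, TGATGNAA on either strand, was in 7 of 22 promoters of the list (31.8%) against 3.97% of all promoters. Over all called genes its share was alike in both directions, 5.04% with the higher and 4.85% with the lower response in adipocytes, against 2.26% for members. The promoter of Chac1 (chr2:119350992-119351291, plus strand) is shown with its match at -193, on the opposite strand, in capitals.
Chac1: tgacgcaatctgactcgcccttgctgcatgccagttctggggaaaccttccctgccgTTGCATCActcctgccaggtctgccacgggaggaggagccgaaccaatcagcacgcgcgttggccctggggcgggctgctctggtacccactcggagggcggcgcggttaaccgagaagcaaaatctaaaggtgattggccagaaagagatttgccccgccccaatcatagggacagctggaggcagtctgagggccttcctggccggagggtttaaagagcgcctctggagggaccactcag
Of 18 endoplasmic reticulum chaperones, 6 fell in adipocytes, 0 passed in macrophages (1 upward at an unadjusted p below 0.05), and 3 had a lower response in adipocytes. Pdia3, a disulfide isomerase, read 4518, 5335 and 5001 in monolayer and 3479, 3750.0 and 3461 in bilayer adipocytes, and 6399.9 and 5837 in monolayer and 7331 and 6748 in bilayer macrophages. The adipocyte arrays fell without overlap and the macrophage arrays lay higher in bilayer, with a difference of -0.67 (SE 0.11, adjusted p = 0.000971). Sdf2l1, a partner of the main chaperone BiP, differed by -0.67 (SE 0.13, adjusted p = 0.00407), and Sec61b, a subunit of the translocation channel, by -0.38 (SE 0.11, adjusted p = 0.0485). The count of 3 was 1 without the intensity trend.

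Cell cycle genes fell in adipocytes, and none passed in macrophages. Of 27 members, 17 fell in adipocytes, 0 rose, 0 passed in macrophages (2 upward at an unadjusted p below 0.05) and 7 had a lower response in adipocytes. Estimates of the difference were below 0 for all but 1 of the 27. Birc5, survivin, which acts in chromosome segregation, read 613, 619 and 576 in monolayer and 403, 359 and 339.6 in bilayer adipocytes, and 3118 and 3275 in monolayer and 3789.9 and 3160.4 in bilayer macrophages. Macrophages held the higher level in every array, the adipocyte arrays fell without overlap, and the macrophage arrays overlapped. Birc5 changed by -0.70 in adipocytes and 0.11 in macrophages and differed by -0.81 (SE 0.13, adjusted p = 0.000827). Cdc20, the activator of the anaphase-promoting complex, differed by -0.82 (SE 0.14, adjusted p = 0.00173), and 2 of its 3 other probes passed in the same direction. The other 5, named after their values were seen, were Plk1 (-0.72), Nusap1 (-0.69), Prc1 (-0.57), Cenpa (-0.50) and Cdca8 (-0.49), all with roles in mitosis. The count of 7 was 0 without the intensity trend and 6 to 10 with 1 array left out. Pkmyt1, a kinase that holds CDK1 inactive and is not in the list, differed by -1.23 (SE 0.25, adjusted p = 0.00558). Its change was -0.54 in adipocytes (adjusted p = 0.0273), with overlapping arrays. In macrophages it was larger, 0.69, and did not pass (adjusted p = 0.108). Of its 2 other probes 1 pointed the other way, and the Pkmyt1 call was lost with the mean of all probes. The cell cycle genes homology region, TTTGAA on either strand, was in 12 of 25 promoters of the list (48%) against 17.9% of all promoters. Over all called genes it was in 10.1% of promoters with the higher and 13.9% with the lower response in adipocytes, against 11.9% for members. The promoter of Cdc20 (chr4:118437294-118437593, minus strand) is shown with its match, at -18, in capitals.
Cdc20: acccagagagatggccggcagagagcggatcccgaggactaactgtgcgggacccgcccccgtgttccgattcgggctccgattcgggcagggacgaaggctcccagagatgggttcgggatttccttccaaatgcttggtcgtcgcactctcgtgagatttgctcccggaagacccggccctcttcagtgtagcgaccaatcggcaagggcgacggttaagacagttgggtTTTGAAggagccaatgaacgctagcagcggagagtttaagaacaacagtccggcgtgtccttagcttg

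Oxidative stress genes and metallothioneins were mixed. Of 19 members, 6 rose and 2 fell in adipocytes, 0 rose and 2 fell in macrophages, and 4 had a higher response in adipocytes. Besides Hmox1 these were Mt2 and Mt1, metal-binding proteins, and Gclm, a subunit of the enzyme that starts glutathione synthesis. Mt2 read 77.1, 78.1 and 113 in monolayer and 293, 370.2 and 247 in bilayer adipocytes, and 149 and 164 in monolayer and 159 and 219.8 in bilayer macrophages. It rose 3.02-fold in adipocytes and differed by 1.36 (SE 0.25, adjusted p = 0.00306), and Mt1 by 0.39 (SE 0.10, adjusted p = 0.031). The count of 4 was 2 without macrophage bilayer replicate 1 or macrophage monolayer replicate 2, and 1 without the intensity trend. Gclm did not pass in adipocytes (adjusted p = 0.78) and fell by 0.50 in macrophages, with a difference of 0.54 (SE 0.11, adjusted p = 0.00819). It was named after its value was seen.

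Lipid genes differed through single members, and several of these changes were on the macrophage side. Of 16 fatty acid and triglyceride synthesis members, 1 rose in adipocytes, 4 rose in macrophages and 1 had a lower response in adipocytes. That gene was Scd2, a fatty acid desaturase, which read 2699.7, 2287 and 2653 in monolayer and 2593, 2296 and 2487 in bilayer adipocytes, and 616 and 514 in monolayer and 1065 and 1097 in bilayer macrophages. The macrophage arrays rose without overlap, 1.89-fold, the adipocyte arrays overlapped, and the difference was -0.97 (SE 0.13, adjusted p = 0.000127). The other 3 that rose in macrophages were Lpin1 (1.09), Acss2 (0.56) and Fads2 (0.53), named after their values were seen, and their differences did not pass (adjusted p = 0.0822, 0.5 and 0.244). Dgat2, which makes triglyceride, had an estimate of 0.47 (SE 0.14, adjusted p = 0.0691) that did not pass. It passed without adipocyte bilayer replicate 3 (0.53, adjusted p = 0.0411) or macrophage monolayer replicate 2 (0.63, adjusted p = 0.0222). In this list 2 genes had a lower response without adipocyte bilayer replicate 2 or macrophage monolayer replicate 1.

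Of 18 cholesterol synthesis and uptake members, 1 had a higher and 2 a lower response in adipocytes. The sterol regulatory element core, TCACNCCAC on either strand, was in 0 of 18 promoters of the list against 1.24% of all promoters. Sqle, squalene epoxidase, read 4567, 4791 and 5752 in monolayer and 8414, 9577 and 8666 in bilayer adipocytes, and 3901 and 3515 in monolayer and 4296 and 4314 in bilayer macrophages. It rose 1.77-fold in adipocytes and differed by 0.61 (SE 0.12, adjusted p = 0.00565). Fdps, farnesyl diphosphate synthase, went the other way with -0.44 (SE 0.10, adjusted p = 0.0146). It rose 1.28-fold in macrophages while the adipocyte arrays overlapped, and its call was lost without macrophage monolayer replicate 2, macrophage bilayer replicate 1 or macrophage bilayer replicate 2 (adjusted p = 0.056 to 0.0907). The 1 other Fdps probe pointed the other way, and with the mean of all probes the difference was -0.14 (adjusted p = 0.582). Nsdhl, another enzyme of the pathway, differed by -0.71 (SE 0.17, adjusted p = 0.0161). Neither Fdps nor Nsdhl passed without macrophage monolayer replicate 2, macrophage bilayer replicate 1 or macrophage bilayer replicate 2, and only 1 of them without adipocyte monolayer replicate 2. Of 7 LXR targets and sterol efflux members, Plin2, a coat protein of lipid droplets, had a higher response in adipocytes. It read 761, 767 and 757 in monolayer and 1059.5, 1352 and 1073 in bilayer adipocytes, and 728 and 729 in monolayer and 632 and 501 in bilayer macrophages. Bilayer levels rose in adipocytes and lay lower in macrophages, without overlap in either line, although the macrophage change did not pass (adjusted p = 0.178), and the difference was 0.95 (SE 0.15, adjusted p = 0.000745). Abcg1, a sterol exporter of the same list, had the opposite estimate, -0.95 (SE 0.31, adjusted p = 0.0838), which did not pass.

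Of 26 lysosome members, 2 had a higher and 1 a lower response in adipocytes. Lipa, the acid lipase that frees cholesterol and fatty acids in lysosomes, read 1395, 1270.1 and 1239 in monolayer and 1692, 2212 and 1499 in bilayer adipocytes, and 4819 and 5261 in monolayer and 3112 and 3217 in bilayer macrophages. It rose 1.36-fold in adipocytes and fell by 0.67 in macrophages, both past the test, and the difference was 1.11 (SE 0.15, adjusted p = 0.000231). Npc1, which moves cholesterol out of lysosomes, rose 1.37-fold in adipocytes, had an estimate of -0.08 in macrophages, and differed by 0.53 (SE 0.10, adjusted p = 0.00465). Of its 2 other probes 1 pointed the other way, and the Npc1 call was lost with the mean of all probes. Atp6v0d1, a subunit of the proton pump, rose by 0.34 in macrophages and differed by -0.45 (SE 0.10, adjusted p = 0.0129), a call lost without macrophage bilayer replicate 1. It was named after its value was seen.

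The largest negative differences were mostly rises in macrophages, but for Rgcc, Iqcc, Gpat3 and Gper1 being higher in bilayer macrophages was a condition of entry. Over all 171 genes with the lower response in adipocytes, the larger change was in adipocytes for 110. Tnfrsf9, a co-stimulatory receptor also known as 4-1BB, read 5.38, -0.663 and 22.4 in monolayer and 31.0, -2.48 and -3.30 in bilayer adipocytes, and 81.8 and 90.9 in monolayer and 532 and 488 in bilayer macrophages. Macrophages rose 5.14-fold, without overlap as the naming rule required, whereas adipocyte arrays scattered about the noise bound in both conditions. Its difference was -2.40 (SE 0.54, adjusted p = 0.0129), and the call was lost without macrophage bilayer replicate 1, macrophage bilayer replicate 2 or macrophage monolayer replicate 1 (adjusted p = 0.0522 to 0.0685). Rgcc, a cell cycle regulator that responds to complement, read 392, 382 and 394 in monolayer and 459.5, 369 and 447 in bilayer adipocytes, and 6.28 and 10.3 in monolayer and 102 and 88.9 in bilayer macrophages. It was not above noise in monolayer macrophages and was at least 4.14-fold higher in bilayer, with a fitted difference of -2.09 (SE 0.20). It passed the brightness rule through bilayer macrophages alone and could enter only by being higher there. Ets1, a transcription factor, read 175, 239 and 225 in monolayer and 252, 279.9 and 265 in bilayer adipocytes, and 26.9 and 42.4 in monolayer and 139 and 137 in bilayer macrophages. Both lines lay higher in bilayer without overlap, which the naming rule required in macrophages. The rise of 3.07-fold in macrophages passed and that in adipocytes did not (adjusted p = 0.176). The difference was -1.31 (SE 0.22, adjusted p = 0.00161). Tgfb3, a transforming growth factor, went from 39.1 and 60.1 to 125 and 125 in macrophages, a rise of 2.18-fold, and from 71.8, 76.0 and 69.4 to 33.3, 61.7 and 47.3 in adipocytes, and differed by -1.63 (SE 0.30, adjusted p = 0.00306).

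Glycogen phosphorylase of the liver type, Pygl, rose 2.04-fold in macrophages, from 186 and 149 to 338 and 377, with overlapping arrays in adipocytes. Its difference was -1.09 (SE 0.25, adjusted p = 0.0147), and the call was lost without macrophage bilayer replicate 2 or macrophage monolayer replicate 2 (adjusted p = 0.0888 and 0.108). Clmp, an adhesion molecule, fell in adipocytes from 296, 278 and 277 to 206, 201 and 181 while the macrophage estimate was 0.75 (adjusted p = 0.0749), and it differed by -1.26 (SE 0.25, adjusted p = 0.00509). Lockd, a long noncoding RNA gene next to Cdkn1b, fell in adipocytes by 0.79 and differed by -1.06 (SE 0.20, adjusted p = 0.00318). Weaker calls were those of Iqcc, a gene of an IQ motif protein, at -2.02 (SE 0.57, adjusted p = 0.0456), a member through bilayer macrophages alone, and Pcmtd1, of the isoaspartate methyltransferase family, at -1.26 (SE 0.31, adjusted p = 0.0223). The Iqcc call was lost without any 1 array other than adipocyte bilayer replicate 1, adipocyte monolayer replicate 2 and macrophage bilayer replicate 1 (adjusted p = 0.0772 to 0.243). That of Pcmtd1 was lost without adipocyte monolayer replicate 1 or 3, macrophage bilayer replicate 2 or macrophage monolayer replicate 2 (adjusted p = 0.0516 to 0.158), and 1 of its 2 other probes pointed the other way.

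**Figure D4:**
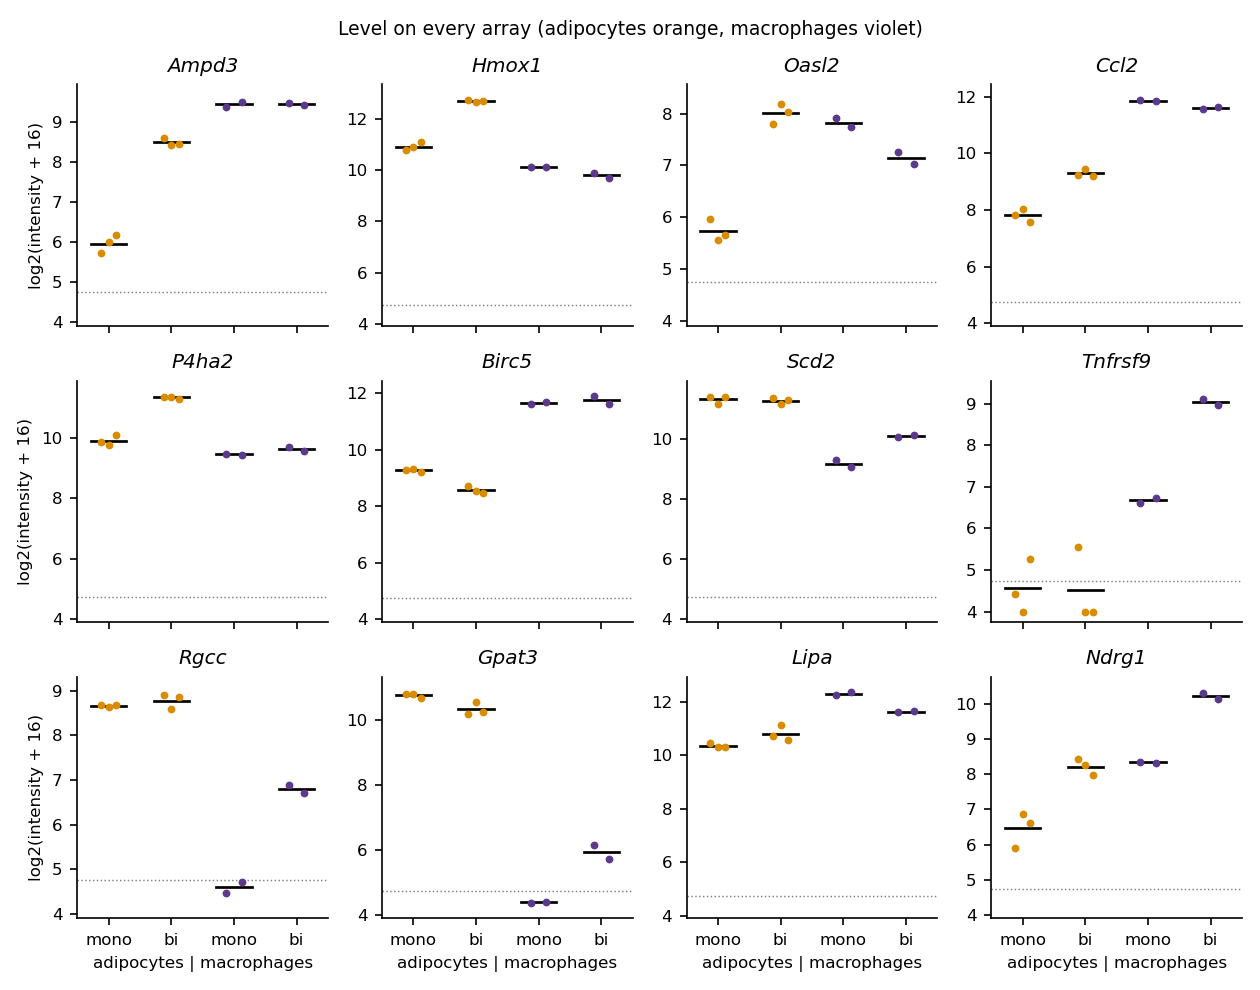
Level of 12 genes on every array on the log2(intensity + 16) scale (y axes) in monolayer and bilayer adipocytes (orange, 3 arrays each) and macrophages (violet, 2 arrays each). Points are arrays, black lines group means and the dotted line the noise bound. Bilayer arrays lie above monolayer arrays in adipocytes for Ampd3, Hmox1, Oasl2 and Ccl2 and in macrophages for Tnfrsf9, Rgcc and Scd2, while Gpat3 and Lipa move in opposite directions and Ndrg1 rises in both lines.

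Receptors and secreted factors were among the differing genes. Of 28 cytokine and growth factor receptors, 7 had a higher and 1 a lower response in adipocytes. The lower was Tnfrsf9, and the higher were P2ry6, Osmr, Ifnar2, Ifngr2, Tgfbr1, Tgfbr2 and Tnfrsf12a. Tgfbr1, a signalling chain of the transforming growth factor beta receptor, read 2215, 2179 and 2233 in monolayer and 2923, 2912 and 2646 in bilayer adipocytes, and 734 and 707 in monolayer and 632 and 566 in bilayer macrophages. It rose 1.28-fold in adipocytes and differed by 0.61 (SE 0.11, adjusted p = 0.0021), and Tgfbr2, its partner chain, differed by 0.59 (SE 0.11, adjusted p = 0.00256). Of 25 secreted cytokines and growth factors, 7 had a higher and 1 a lower response in adipocytes. The lower was Tgfb3, and the higher were Ccl2, Ccl7, Angptl4, Gas6, Ccl9, Pdgfa and Mif. Angptl4, an inhibitor of lipoprotein lipase, read 5592, 5394 and 5322 in monolayer and 12313, 10792 and 10505 in bilayer adipocytes, and 575 and 549 in monolayer and 646 and 632 in bilayer macrophages. It rose 2.05-fold in adipocytes without overlap and differed by 0.86 (SE 0.10, adjusted p = 5.52e-05). Gas6, the ligand of TAM receptors, differed by 0.97 (SE 0.21, adjusted p = 0.0108) with a fall of 0.70 in macrophages, where its level was 14.9 to 58.9, against 3392 to 4556 in adipocytes. In the last list 5 members passed the brightness rule in a line through 1 condition only, and in the receptor list 2. The 7 higher receptors were 4 without adipocyte monolayer replicate 2, macrophage bilayer replicate 2 or macrophage monolayer replicate 2, and the 7 higher ligands were 4 without macrophage bilayer replicate 2. Without the intensity trend, 1 higher receptor and 2 higher ligands passed.

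Of the genes that passed in each line alone, 30 passed in both, which is 2.64% of those in adipocytes and 36.1% of those in macrophages. Of these, 25 moved in the same direction, 22 up and 3 down, and 5 in opposite directions. The 2 comparisons share no arrays, but the spread of each gene was estimated from all 10. Bilayer pools of the 2 lines may also come from the same dishes, which was not tested, so the 2 responses may not be independent. For opposite genes the difference is the sum of the sizes of both changes, so its test adds nothing to theirs. Without adipocyte bilayer replicate 3 or adipocyte monolayer replicate 1 the opposite genes were 2, and without adipocyte bilayer replicate 2 or adipocyte monolayer replicate 2 they were 3. The 25 genes of shared direction were 16 without macrophage bilayer replicate 1 or macrophage bilayer replicate 2 and 14 without macrophage monolayer replicate 2. Lipa and Col18a1 rose in adipocytes and fell in macrophages, and Gpat3, Gper1 and Mid1ip1 fell in adipocytes and rose in macrophages. Gpat3, an acyltransferase of the first step of triglyceride synthesis, read 1785, 1799 and 1631 in monolayer and 1166, 1501 and 1204 in bilayer adipocytes, and 4.61 and 5.29 in monolayer and 56.0 and 36.8 in bilayer macrophages. Bilayer macrophages were above the monolayer level, which was below noise, at least 2.29-fold, to a level far under that of adipocytes, which fell by 0.43 (adjusted p = 0.0192). The fitted difference was -1.99 (SE 0.19). Gper1, a membrane receptor for estrogen, read 360.3, 294 and 314 in monolayer and 178, 176 and 248 in bilayer adipocytes, and 4.24 and -1.51 in monolayer and 22.1 and 25.7 in bilayer macrophages. The level in bilayer macrophages was at least 1.48-fold higher and the fitted difference -1.80 (SE 0.26). Gpat3 and Gper1 were members through bilayer macrophages alone, so being higher there was a condition of entry. Mid1ip1, an activator of acetyl-CoA carboxylase, read 1729.9, 1646 and 1777 in monolayer and 1538, 1368 and 1419 in bilayer adipocytes, and 563 and 592 in monolayer and 785 and 760.2 in bilayer macrophages. It was the one of the 3 that was well above noise in every group, fell by 0.25 in adipocytes, rose 1.33-fold in macrophages and differed by -0.66 (SE 0.11, adjusted p = 0.0013). Col18a1, collagen XVIII, rose 1.26-fold in adipocytes and was at least 1.39-fold lower in bilayer macrophages, where it was not above noise, with a fitted difference of 1.03 (SE 0.16). It was a member through monolayer macrophages alone.

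The 25 genes that moved the same way included 4 whose responses also differed in size. Osmr, Pdk1 and Fam162a rose more in adipocytes, and Rras, a small GTPase named after its value was seen, rose more in macrophages, with a difference of -0.42 (SE 0.11, adjusted p = 0.0298). For the other 21 the difference did not pass, with estimates from -0.46 to 0.35. The 95% interval lay within 1 log2 unit on either side of 0 for 20 of them, and that of Depp1, a FOXO-regulated gene, reached from -0.43 to 1.12. Depp1 read 122 and 353 in bilayer macrophages, and without macrophage bilayer replicate 2 its difference was 1.06 in place of 0.35 and passed (adjusted p = 0.0469). Intervals of 4 of the 21 did not include 0, with the larger rise in macrophages. Tfrc, the transferrin receptor that brings iron into the cell, read 2428, 2315 and 2140.1 in monolayer and 1590.1, 1383 and 1502 in bilayer adipocytes, and 4463 and 4019 in monolayer and 2651 and 2907 in bilayer macrophages. It fell in both lines without overlap, by 0.62 in adipocytes and 0.61 in macrophages, with an interval of the difference from -0.25 to 0.23. Id1, an inhibitor of helix-loop-helix transcription factors, fell by 0.55 and 0.57 (interval -0.19 to 0.24). Hcar2, a receptor for nicotinic acid and ketone bodies, read 1384, 1377 and 1317 in monolayer and 1994, 1919.6 and 1930.1 in bilayer adipocytes, and 242 and 208 in monolayer and 339.8 and 312 in bilayer macrophages. It rose 1.43-fold and 1.42-fold, and the interval ran from -0.24 to 0.25. These were the 3 genes with the smallest differences among the 25, chosen for that.

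**Figure D5:**
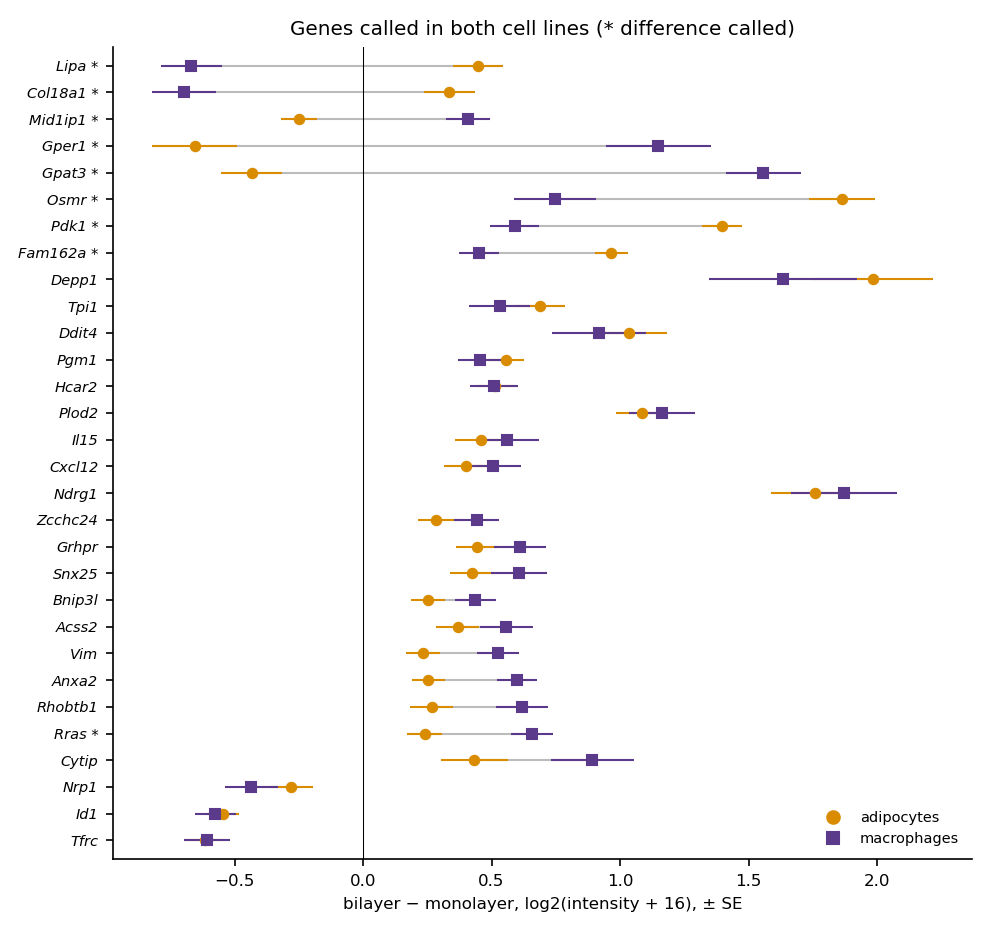
Bilayer minus monolayer change (x axis, log2(intensity + 16), bars are standard errors) of the 30 genes that passed in both lines (y axis), in adipocytes (orange circles) and macrophages (violet squares). From the bottom are 3 genes lower in both, 22 higher in both and 5 opposite, and a star marks the 9 whose difference passed.

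Several lists held no gene that passed the test of the difference. Of 11 heat shock, 19 fatty acid oxidation, 26 oxidative phosphorylation, 11 ribosomal protein, 10 circadian clock and 5 macrophage identity members, 0 passed by limma. At an unadjusted p below 0.05 they held 0, 3, 10, 1, 3 and 0 differing genes. The 2 genes of each list with the smallest p, with estimates and 95% intervals, were Ahsa1 (-0.27, interval -0.63 to 0.09) and Dnajb1 (0.15, -0.08 to 0.38), Cpt1b (1.20, 0.38 to 2.02) and Etfdh (-0.30, -0.58 to -0.01), Cox6c (0.31, 0.11 to 0.52) and Cox5b (-0.28, -0.47 to -0.08), Rpl23 (0.24, 0.05 to 0.44) and Rpl22 (0.25, -0.01 to 0.51), Per2 (0.59, 0.16 to 1.01) and Per1 (0.61, 0.10 to 1.11), and Aif1 (-0.39, -0.97 to 0.18) and Ctss (0.44, -0.37 to 1.25). The adipocyte, macrophage and fibroblast lists had 5 members each, of 18, 22 and 25 genes on the array. Among 5 adipocyte identity members, Gpd1, glycerol-3-phosphate dehydrogenase, fell by 0.62 in adipocytes and differed by -0.90 (SE 0.25, adjusted p = 0.0407), and Adipoq, adiponectin, differed by 0.65 (SE 0.15, adjusted p = 0.015). The Gpd1 level in macrophages lay about the noise bound, 2.25 and 19.5 in monolayer and 14.5 and 15.3 in bilayer, and without macrophage monolayer replicate 1 its difference was -0.43. Adipoq was a member through monolayer macrophages alone, and its value came from macrophage arrays near the noise bound, 12.1 and 19.0 in monolayer and 0.748 and 5.26 in bilayer, beside 18437 to 22220 in adipocytes. Its call was lost without macrophage bilayer replicate 1 or macrophage monolayer replicate 2 (adjusted p = 0.112 and 0.12), and that of Gpd1 without any 1 array other than adipocyte bilayer replicate 2 and macrophage monolayer replicate 2 (adjusted p = 0.0625 to 0.216). In the fibroblast list of 5 members, Acta2, smooth muscle actin, fell by 0.61 in adipocytes and differed by -0.61 (SE 0.15, adjusted p = 0.0193), a call lost without adipocyte monolayer replicate 1 or 2, macrophage bilayer replicate 1 or macrophage monolayer replicate 2 (adjusted p = 0.051 to 0.149), while Fn1, fibronectin, had an estimate of 0.53 (SE 0.18, adjusted p = 0.108), which did not pass. Without macrophage bilayer replicate 1 that of Fn1 was 0.83 and passed (adjusted p = 0.00432), and its 1 other probe pointed the other way.

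The called genes did not share a monolayer level. Of the 229 with the higher response in adipocytes, 45.4% were brighter in monolayer adipocytes than in monolayer macrophages, close to the 46.7% of all members, and of the 171 with the lower response 63.2% were. The brightness rule let in 393 members that were above noise in a line through 1 condition only, of which 14 differed. They were Gpr35, Mob3b and P2ry6 through bilayer adipocytes, Adamts12, Gpat3, Gper1, Iqcc, Rgcc and Zfpm2 through bilayer macrophages, and Adipoq, Col18a1, Fscn1, Slc23a3 and Tbx6 through monolayer macrophages. Just inside the rule were Scn10a, Btla and B130055M24Rik, with the second highest array of the dimmer line at 10.9, and just outside were Ttk, Carf and Iqca, at 10.89.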

How the data were processed

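Biotin-labelled RNA of 10 samples was hybridised to Illumina bead arrays. The authors deposited linear intensities for 45281 probes, which were taken as background-subtracted and normalized because 35.5% were below 0 on each array and the medians (5.08 to 5.10) and upper quartiles (83.9 to 84.2) were nearly equal. The submitters' processing notes name GenomeStudio 2011.1 without a role, and the normalization method is not given in the sources used here. A further 20 value columns, from 2 slides of 6 and 4 arrays, carry names that match no sample and were not used, so slide could not be tested as a batch.

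Values below 0 were set to 0, 16 was added and log2 taken, which understates changes of dim genes. The noise bound was the 99th percentile of the sizes of values below 0, 10.9. Of the probes, 34885 had 1 gene symbol, 18 several and 10378 none in the platform annotation, and only the first were used. A gene was represented by the probe, among those above the bound on at least 2 arrays of each line, with the highest mean. The 4 group means were fitted to all 10 arrays with limma 3.58.1 in R 4.3.3 (lmFit, eBayes with an intensity trend), and p-values, all two-sided, were adjusted by Benjamini-Hochberg over the 9316 members. A gene passed at an adjusted p below 0.05. Without adjustment 1696 members had p below 0.05. The test was checked on simulated data, with 50 genes given each of 4 sizes of difference. It recovered 36% of them at 0.5 log2, 66% at 1, 90% at 2 and 98% at 3, with 3 false calls among 148. A gene that did not pass may therefore still differ. The number of arrays limits the precision.

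Named genes were the 12 largest differences in each direction among called genes whose arrays did not overlap in the line with the larger change, the 2 smallest p of each list, the 6 largest shared and up to 8 largest opposite changes among genes passing in both lines, the 3 shared ones of smallest difference, and 3 genes on each side of the brightness rule. Other genes named for their responses were named after their values were seen, also where the text does not say so. The members and lists were chosen with earlier results of these data known. Sequences are from RefSeq, GRCm38.p6.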

Additional observations from a re-analysis of the deposited data

Results flagged for a closer look

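The 54 named genes whose bilayer responses differed between adipocytes and macrophages by the test of the difference itself are given here together. Each value is the adipocyte response minus the macrophage response on the log2(intensity + 16) scale. A positive value stands for a more upward response in adipocytes. The difference was 2.97 for Oasl2, 2.52 for Ampd3, 2.22 for Slc25a34, 2.12 for Hmox1, 2.12 for P2ry6, 1.93 for Mx2, 1.86 for Bcl3, 1.74 for Ccl2 and 1.67 for Slc23a3. Next in size were 1.64 for Car9, 1.61 for Mob3b, 1.60 for Masp2, 1.53 for Isg15, 1.36 for Mt2, 1.25 for P4ha2, 1.12 for Osmr, 1.11 for Lipa and 1.03 for Col18a1. Smaller positive differences were 0.98 for Fosl2, 0.95 for Plin2, 0.93 for Ccl7, 0.87 for Chac1, 0.86 for Angptl4, 0.86 for Pgk1, 0.81 for Pdk1, 0.78 for Atf3 and 0.78 for Aldh18a1. The smallest positive differences were 0.77 for Stat3, 0.69 for Pgam1, 0.65 for Adipoq, 0.61 for Tgfbr1, 0.61 for Sqle and 0.53 for Npc1. The difference was most negative at -2.40 for Tnfrsf9, -2.09 for Rgcc, -2.02 for Iqcc, -1.99 for Gpat3, -1.80 for Gper1, -1.63 for Tgfb3 and -1.31 for Ets1. Next were -1.26 for Clmp, -1.26 for Pcmtd1, -1.23 for Pkmyt1, -1.09 for Pygl, -1.06 for Lockd, -0.97 for Scd2 and -0.90 for Gpd1. The smallest negative differences were -0.82 for Cdc20, -0.81 for Birc5, -0.67 for Pdia3, -0.67 for Sdf2l1, -0.66 for Mid1ip1, -0.61 for Acta2 and -0.44 for Fdps. P2ry6, Mob3b, Slc23a3, Adipoq, Col18a1, Gpat3, Gper1, Iqcc and Rgcc were members in a line through 1 condition alone, which fixed the direction there, and their values are descriptions. Single samples were not tested for standing apart, since no group had more than 3 samples.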

How the results depend on the processing

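The number of genes whose responses differed depended most on how the variance of a gene was estimated and on the filter. Without the intensity trend it was 49 (36 higher and 13 lower in adipocytes), with 550 genes passing in adipocytes, 10 in macrophages, 2 in both in the same direction and 0 in opposite directions. With no filter on dim probes it was 104 (56 and 48), with 609 in adipocytes, 9 in the same and 0 in opposite directions, over all 19057 genes. With each line fitted alone it was 620 (279 lower), with 137 in macrophages and 8 in opposite directions. Opposite genes were 2 when all 10 arrays had to exceed the bound and 3 with 4 added before log2. The cause was not tested. Other scaling, the lower noise bound, both other constants and the mean of all probes left the number of differing genes between 321 and 467. Leaving out 1 array gave 205 to 466 differing genes (123 to 263 higher, 82 to 203 lower), 729 to 1074 in adipocytes, 48 to 95 in macrophages, 14 to 30 in the same and 2 to 7 in opposite directions. Of the 400 genes, 399 kept the sign of the difference with the mean of all probes, 368 of 369 tested did with all 10 arrays above the bound, and all did in each other setting.

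With 64 added before log2 the list medians were 0.37 for interferon, 0.49 for NF-kB targets, 0.44 for acute phase, 0.34 for immediate early, -0.0736 for chaperones, -0.35 for cell cycle, 0.24 for NRF2 targets, 0.22 for receptors, 0.18 for circadian and -0.19 for fibroblast genes. With 4 added they were 0.71 for interferon, 0.84 for NF-kB targets, 0.47 for receptors, 0.19 for secreted factors and -0.61 for fibroblast genes. With the mean of all probes they were 0.49 for glycolysis, 0.49 for interferon, -0.12 for fatty acid synthesis, 0.24 for NRF2 targets, -0.0358 for ribosomal proteins and 0.18 for secreted factors. With all 10 arrays above the bound they were 0.48 for interferon, 0.81 for NF-kB targets and 0.32 for receptors. The ribosomal median was -0.0196 after quantile normalization and the fibroblast median -0.20 with no filter.

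Leaving out 1 array, medians ran from 0.38 to 0.67 for hypoxia, 0.48 to 0.63 for glycolysis, 0.49 to 0.69 for interferon, 0.61 to 0.77 for NF-kB targets, 0.50 to 0.70 for acute phase, 0.31 to 0.59 for immediate early, -0.20 to -0.0600 for chaperones, -0.14 to -0.0290 for heat shock and -0.50 to -0.37 for cell cycle genes. They ran from -0.14 to -0.0138 for cholesterol, -0.20 to 0.31 for LXR targets, -0.19 to -0.11 for fatty acid synthesis, -0.10 to -0.0035 for fatty acid oxidation, -0.13 to -0.0657 for oxidative phosphorylation, 0.19 to 0.25 for lysosome and 0.23 to 0.36 for NRF2 targets. They ran from -0.0351 to 0.0578 for ribosomal proteins, 0.29 to 0.45 for receptors, 0.0833 to 0.28 for secreted factors, 0.0832 to 0.33 for circadian, -0.21 to 0.16 for adipocyte and -0.63 to -0.24 for fibroblast genes.

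Of the 54 named calls, 12 were lost when some array was left out, 34 without the trend, 32 with no filter on dim probes, 11 with the mean of all probes, 6 with 4 and 1 with 64 added before log2, and 4 with each line fitted alone. The main fit did not pair samples by number, and a check did not settle whether the numbers pair them. In adipocytes, same-numbered monolayer and bilayer deviations correlated at 0.03 to 0.10 and other-numbered ones at -0.077 to -0.001. Each adipocyte sample thus correlated best with its own number, though weakly. In macrophages the values were -0.04 for the same and 0.04 for other numbers. With 2 arrays in a group these mirror each other by construction. With a replicate block 471 genes differed and 8 were opposite, and the Mob3b call was lost. The normexp background correction and the slide block were not run, since the columns they need could not be tied to samples. Values near the noise bound limit what can be said of dim genes.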
